A study of Mus musculus with 15 samples.

Results

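The lining of the liver's blood vessels was examined through 31 genes of liver sinusoidal and vascular endothelium in whole-liver RNA, listed by name and all measured, out of 18193 genes with a name on the array. Liver sinusoidal endothelial cells form a fenestrated wall without a continuous basement membrane, through which plasma reaches the hepatocytes. They take up waste molecules through scavenger receptors, and they release factors that act on neighbouring cells, among them BMP ligands that set hepcidin and Wnt ligands and R-spondins that set hepatocyte zonation. Continuous endothelium of arteries and veins stores von Willebrand factor and is sealed by cadherin and claudin junctions.

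RNA came from the livers of 15 male mice, with 1 array per mouse and 5 mice per group. The C57BL/6J group was fed chow and given distilled water. The KKAy model group, a strain with the lethal yellow allele of agouti, was fed a high-fat diet and given distilled water. The XKA group was KKAy mice on the same high-fat diet, given Xiao-Ke-An (XKA), a Chinese medicine of 8 herbs, by gavage once a day at 1.5 g/kg for 32 days. All mice were 10 weeks old at the start. Strain, diet and supplier differed together between C57BL/6J and KKAy mice and cannot be told apart, and whether the livers were taken fed or fasted is not settled by the methods. Whole liver holds many cell types, so fewer endothelial cells and less RNA per cell cannot be told apart.

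The deposited intensities had array medians of 127 to 182 and were scaled here to the median of 1000 that the methods name. All signals below are on that scale, and all changes are differences of log2 signals with their standard error. Of the 31 genes, 29 had a mean signal above the array median, while Tie1 and Pecam1 lay below it. Over all genes, KKAy model livers differed from C57BL/6J livers by a median of 0.148 on the log2 scale after this scaling, by -0.0447 without it and by 0.0408 after quantile normalization, so small changes in that comparison have no settled sign. Within a group, arrays correlated at a Spearman's rho of 0.882 to 0.917 across probe sets. KKAy model replicate 3 and XKA replicate 1 stood apart in acute phase genes. Saa3, a serum amyloid A, had a signal of 452975 in the first, against 15655 to 79405 in the other model arrays, and of 93509 in the second, against 14004 to 17142. Calls that were lost or gained without both arrays are given beside the gene.

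Between KKAy model and C57BL/6J livers 4 of the 31 genes passed an adjusted p under 0.05, and all 4 were higher in the KKAy model. Of all genes 12.8% passed, and 10.5% passed as higher, so the share among the endothelial genes (12.9%) was near the background. The median log2 change was 0.184 over the 31 genes and 0.148 over all genes. The groups did not overlap for 3 of the 31 genes, against 10.5% of all genes. The 4 genes were Vwf, Stab2, Egfl7 and Clec4g, and they came from different roles: a stored blood protein, a scavenger receptor, a secreted vascular factor and a lectin.

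The upstream sequences of 3 of these 4 genes are shown because they differ in whether they hold GGAAGT, the word searched here for ETS factors. These factors act in endothelial genes, and other forms of their binding sites were not searched. Windows of 250 bases before the start came from RefSeq (GRCm38.p6). The table used here held 18 windows of 16 of the 31 genes, and that of Vwf was not analysed here. The words searched on both strands were GGAAGT for ETS, AACAAT for SOX and AGATAA for GATA factors, and matches stand in capitals. The ETS word was in 8 of the 18 windows and in 19.7% of all 32851 windows. The SOX word was in 2 (9.42% of all) and the GATA word in 0 (9.99% of all). Of the 3 Egfl7 starts, 2 held the ETS word, and the Stab2 and Clec4g windows held none of the words. A match of letters does not show that a factor binds there, and a window without the word can still hold other forms of the site.
Stab2, chr10:87007943-87008192, minus strand: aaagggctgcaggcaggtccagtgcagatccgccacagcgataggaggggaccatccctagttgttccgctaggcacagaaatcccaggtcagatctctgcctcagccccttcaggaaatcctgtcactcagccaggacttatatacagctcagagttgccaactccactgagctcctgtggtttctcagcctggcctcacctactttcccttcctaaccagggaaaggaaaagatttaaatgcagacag
Clec4g, chr8:3720652-3720901, minus strand: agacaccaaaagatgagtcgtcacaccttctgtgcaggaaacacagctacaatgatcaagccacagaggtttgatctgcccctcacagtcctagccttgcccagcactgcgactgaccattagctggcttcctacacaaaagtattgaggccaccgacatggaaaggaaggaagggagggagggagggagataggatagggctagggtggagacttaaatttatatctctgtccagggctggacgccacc
Egfl7, first start, chr2:26580833-26581082, plus strand: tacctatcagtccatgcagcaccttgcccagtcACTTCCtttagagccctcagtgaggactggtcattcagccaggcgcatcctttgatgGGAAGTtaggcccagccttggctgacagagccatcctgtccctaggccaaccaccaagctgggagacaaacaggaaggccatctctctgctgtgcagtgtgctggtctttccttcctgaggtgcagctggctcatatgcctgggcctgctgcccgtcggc
Egfl7, second start, chr2:26583615-26583864, plus strand: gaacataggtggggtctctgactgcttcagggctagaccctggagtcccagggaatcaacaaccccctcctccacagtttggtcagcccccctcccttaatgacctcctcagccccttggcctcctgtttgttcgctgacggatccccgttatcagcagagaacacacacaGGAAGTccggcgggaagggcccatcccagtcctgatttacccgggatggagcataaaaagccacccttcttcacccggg

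Vwf encodes von Willebrand factor, which tethers platelets to a damaged vessel wall. Its signal was 1784, 1367, 1128, 1359 and 1065 in C57BL/6J replicates 1 to 5, and 3978, 2676, 3140, 3428 and 2962 in the KKAy model. In the XKA group it was 2582, 3152, 2876, 1377 and 1671. Every model array lay above every C57BL/6J array, and the XKA arrays fell into a higher 3 and a lower 2 that reached the C57BL/6J range. The log2 change between KKAy model and C57BL/6J livers was 1.28 (standard error 0.25, adjusted p = 0.00175 from limma). It passed under all 27 alternative settings.

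Stab2, stabilin-2, is the receptor with which sinusoidal cells clear hyaluronan. Its signal was 11478, 9631, 8396, 8884 and 10261 in C57BL/6J replicates 1 to 5, and 15862, 16572, 19911, 23117 and 12859 in the KKAy model. In the XKA group it was 11559, 18113, 13309, 11638 and 11541. Model and C57BL/6J arrays did not overlap, and 4 of the 5 XKA arrays lay below all but the lowest model array. The log2 change in the KKAy model was 0.84 (standard error 0.16, adjusted p = 0.0014 from limma), and it too passed under all 27 alternative settings. For Stab1, its paralog in the same cells, the difference was 0.04 (standard error 0.18, adjusted p = 0.919).

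Egfl7 is secreted by endothelium and takes part in the assembly of vessels. Its signal was 5536, 5758, 4703, 4469 and 5147 in C57BL/6J replicates 1 to 5, and 8527, 7429, 9208, 9137 and 10245 in the KKAy model. In the XKA group it was 3166, 9019, 6937, 6661 and 6895. The model arrays were all above the C57BL/6J arrays, and XKA replicate 1 was below all other 14 arrays. The log2 change in the KKAy model was 0.80 (standard error 0.21, adjusted p = 0.0136 from limma). It did not pass in the values as deposited (adjusted p = 0.0613) or by Dunnett comparisons (adjusted p = 0.0762). Egfl7 had 4 probe sets, all with a mean above the array median, whose log2 changes were 0.80, 0.35, 1.02 and 0.23, and the first and the third passed.

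Clec4g, the lectin LSECtin of sinusoidal cells, had a signal of 25949, 33128, 17284, 19727 and 28650 in C57BL/6J replicates 1 to 5. In the KKAy model it was 41367, 33264, 44715, 32051 and 42142, and in the XKA group 26093, 40934, 51218, 26295 and 29121. The KKAy model arrays overlapped the C57BL/6J arrays in 1 array of each. The log2 change in the KKAy model was 0.66 (standard error 0.20, adjusted p = 0.0309 from limma). It passed under 16 of 27 alternatives, fewer than the other 3 genes, and not under either other scaling. Removals of XKA arrays, which leave this log2 change as it is, were among the 16. Without both acute phase arrays it was 0.61 (adjusted p = 0.0656), which left 3 of the 31 genes.

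**Figure D1:**
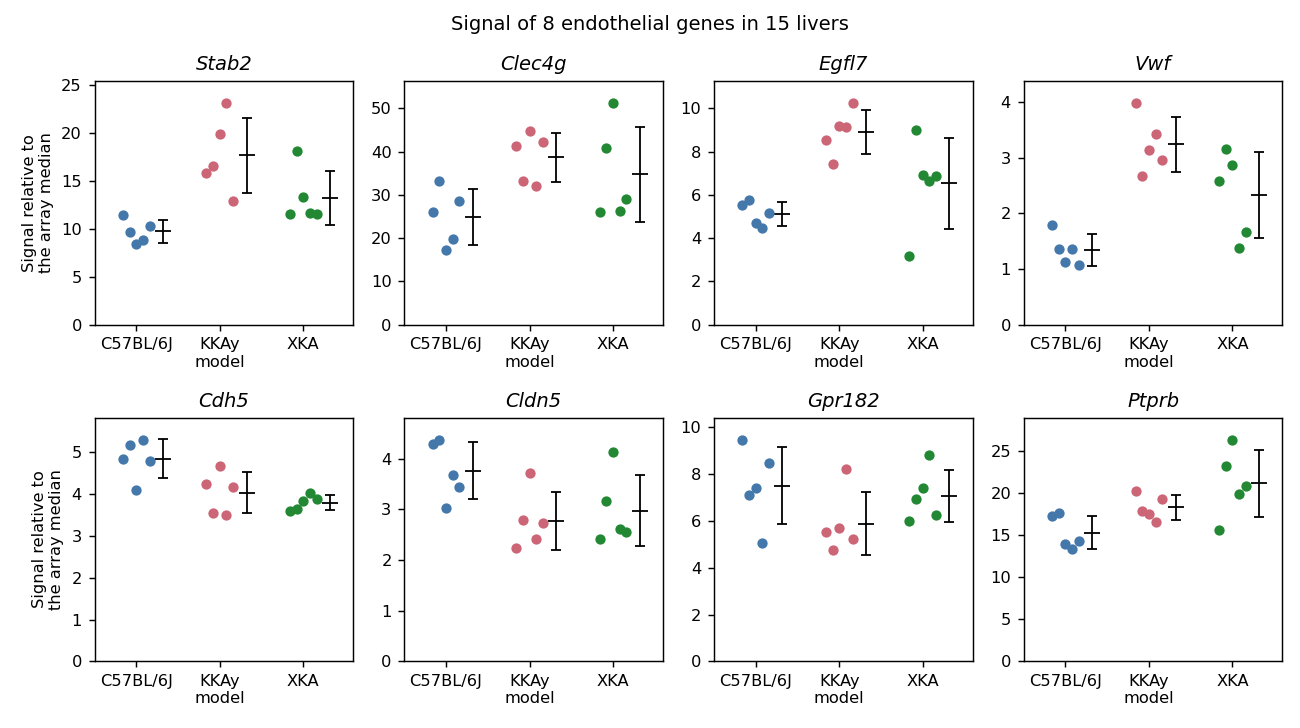
Signal relative to the array median of 8 endothelial genes in the 5 arrays of each group, with the mean and SD beside the points. Vwf, Stab2 and Egfl7 do not overlap between KKAy model and C57BL/6J livers, while Cdh5, Cldn5 and Gpr182 have lower means in the KKAy model and overlapping arrays.

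The other 7 genes of endocytosis and scavenging did not pass in this comparison. Their log2 changes ran from -0.53 for Lyve1, a hyaluronan receptor also found on lymphatic endothelium, to 0.35 for Dnase1l3, a secreted nuclease. Fcgr2b, the inhibitory Fc receptor that clears immune complexes, had a log2 change of -0.32 (standard error 0.25), and Mrc1, the mannose receptor, one of 0.13 (standard error 0.17). The value was -0.19 (standard error 0.18) for Ehd3, a membrane-trafficking protein, and 0.09 (standard error 0.17) for Oit3. The Lyve1 values were the most scattered, with 11501 in XKA replicate 4 against 1713 to 4262 in the other XKA arrays. Mrc1 and Fcgr2b are also expressed by macrophages.

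Of 7 vascular receptor genes none passed between KKAy model and C57BL/6J livers by limma. Of the 7, 1 had an unadjusted p under 0.05, as had 4569 of all 18193 genes. It was Eng, the TGF-beta coreceptor endoglin (log2 change 0.33, standard error 0.13). Without KKAy model replicate 5 Eng passed (0.40, adjusted p = 0.0418) and Clec4g did not (adjusted p = 0.054). For Kdr and Flt1, the VEGF receptors, the values were 0.18 (standard error 0.23) and -0.09 (standard error 0.26). For Tek, the angiopoietin receptor TIE2, it was 0.18 (standard error 0.19). Tie1, its relative, had signals from 42 to 807 over the 15 arrays and a standard error of 0.82, so little can be read from it. Gpr182, an atypical chemokine receptor, had a mean of 7500 ± 1645 in C57BL/6J and 5885 ± 1359 in KKAy model livers (SD, n = 5). Its log2 change was -0.35 (adjusted p = 0.24), and it passed as lower without scaling (-0.54, adjusted p = 0.0455) and after quantile normalization (-0.49, adjusted p = 0.029).

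Genes of junctions and the cell surface did not pass either, and some had lower means in the KKAy model. Cldn5, the claudin of endothelial tight junctions, had a signal of 4292, 4367, 3027, 3677 and 3445 in C57BL/6J replicates 1 to 5 and 2237, 2788, 3718, 2406 and 2726 in the KKAy model. The 2 groups overlapped through KKAy model replicate 3. Its log2 change was -0.45 (standard error 0.20, adjusted p = 0.159 by limma), and it passed as lower without scaling (-0.64, adjusted p = 0.0267) and after quantile normalization (-0.55, adjusted p = 0.0365). Cdh5, VE-cadherin, had a mean of 4843 ± 466 in C57BL/6J, 4028 ± 490 in KKAy model and 3798 ± 177 in XKA livers (SD, n = 5). Its log2 change in the KKAy model was -0.27 (adjusted p = 0.253), and of the 3 scalings it passed as lower only in the values as deposited (-0.46, adjusted p = 0.0292). The log2 change was 0.58 for Emcn, the sialomucin endomucin (standard error 0.27, adjusted p = 0.177), 0.47 for the adhesion molecule Icam2 and 0.31 for the junction protein Esam. It was -0.10 for Robo4, a guidance receptor, and -0.15 for the adhesion molecule Pecam1 (standard error 0.59). A difference taken within each array is not touched by the median scaling, though quantile normalization can change it. Against the median of the 31 genes in the same array, Vwf differed by 1.28 and Stab2 by 0.84, and Cdh5 by -0.27 and Cldn5 by -0.45 (KKAy model minus C57BL/6J, log2). These 4 were chosen for this comparison after their values were seen, and the values repeat those above. With each array centred on the 31 genes, Vwf, Stab2, Egfl7 and Clec4g passed by limma, and Cdh5 and Cldn5 did not.

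Among the secreted factors, Rspo3 and Wnt2, which drive pericentral Wnt signalling, had log2 changes of 0.53 (standard error 0.23, adjusted p = 0.158) and 0.42 (standard error 0.24, adjusted p = 0.282) in the KKAy model. For Bmp2, which induces hepcidin, it was 0.13 (standard error 0.17). It was 0.48 (standard error 0.32) for Nos3, endothelial nitric oxide synthase, 0.33 for the transcription factor Sox18 and 0.03 for its relative Sox17. Of these 6 genes none passed by limma, and Rspo3 had an unadjusted p of 0.0352, where 4569 of all 18193 genes were under 0.05. In Nos3 the XKA arrays ran from 1310 to 5964, the widest ratio of the 3 groups.

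**Figure D2:**
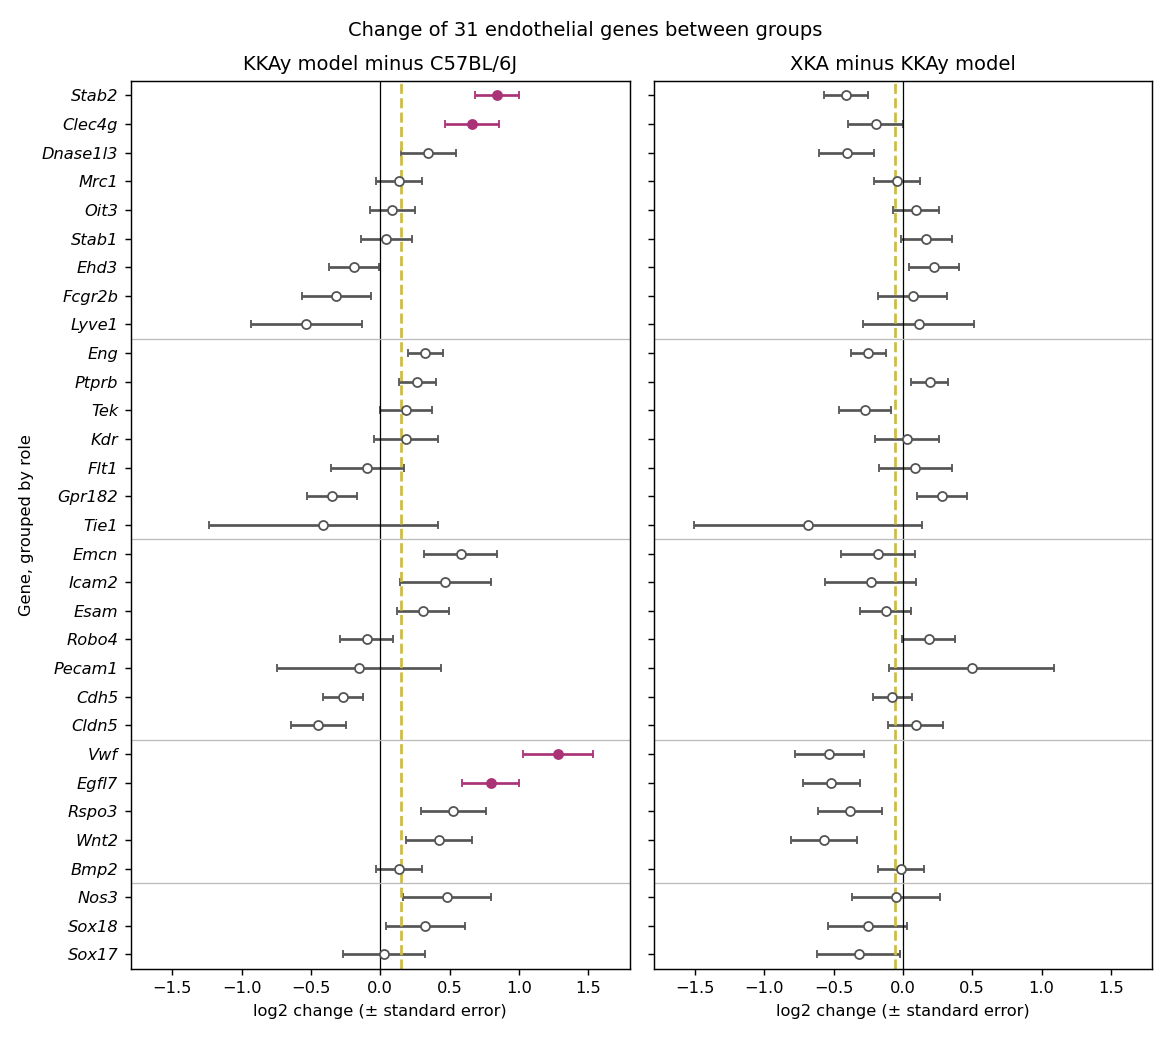
Log2 change with standard error of the 31 genes, grouped by role, for KKAy model minus C57BL/6J (left) and XKA minus KKAy model (right). Filled points passed an adjusted p under 0.05 and the dashed line is the median of all genes, 0.148 on the left and -0.0609 on the right. Stab2, Clec4g, Vwf and Egfl7 passed on the left and no gene passed on the right.

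Between the XKA and KKAy model groups none of the 31 genes passed by limma, where 0.176% of all genes did, and Dunnett comparisons gave 0 as well. At an unadjusted p under 0.05 there were 4 of 31 (12.9%), against 8.58% of all genes. These 4 had lower means in the XKA group. The log2 change was -0.57 for Wnt2 (standard error 0.24, adjusted p = 0.491), -0.53 for Vwf (standard error 0.25, adjusted p = 0.579), -0.52 for Egfl7 (standard error 0.21, adjusted p = 0.464) and -0.41 for Stab2 (standard error 0.16, adjusted p = 0.451). Wnt2 had a signal of 3634, 1992, 2287, 2610 and 2895 in KKAy model replicates 1 to 5 and 1607, 2457, 1549, 1643 and 1719 in the XKA group. The groups overlapped through XKA replicate 2. All 5 secreted factors had a lower mean log2 signal in the XKA group, as had 58.4% of all genes, and the value for Bmp2 was -0.02, whose sign turned under other scalings. The same 5 had higher means in the KKAy model arrays that both comparisons share. Over the 31 genes the median was -0.0775, over all genes -0.0609. Without XKA replicate 1 it was 0.018, and without that array and KKAy model replicate 3 it was 0.0104.

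The reverse rate (RR) of the methods is the model-to-treated difference divided by the model-to-normal difference of group means, so a value of 1 means that the treated mean equals the C57BL/6J mean. It was computed for the 4 genes that passed between KKAy model and C57BL/6J livers, since it is unstable where that difference is small. It was 0.627 for Egfl7, 0.559 for Stab2, 0.477 for Vwf and 0.289 for Clec4g. Leaving out 1 array at a time gave 0.404 (without XKA replicate 1) to 0.791 for Egfl7, 0.467 to 0.712 for Stab2, 0.351 to 0.585 for Vwf and 0.132 (without XKA replicate 1) to 0.588 (without XKA replicate 3) for Clec4g. The 2 comparisons share the KKAy model arrays, and the RR has no test here.

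Between the XKA and C57BL/6J groups 1 of the 31 genes passed, against 7.37% of all genes. It was Ptprb, the phosphatase VE-PTP that acts on TIE2 and VE-cadherin. Its signal was 17233, 17588, 13924, 13377 and 14251 in C57BL/6J replicates 1 to 5, 20258, 17910, 17465, 16527 and 19278 in the KKAy model, and 15580, 23175, 26309, 19878 and 20816 in the XKA group. All XKA arrays but replicate 1 lay above all C57BL/6J arrays. The log2 change was 0.46 (standard error 0.13, adjusted p = 0.0403 from limma). It passed under 11 of 26 alternatives, among them removals of KKAy model arrays, which leave this log2 change as it is. A second bright probe set had a log2 change of 0.21 (adjusted p = 0.592 from limma). The log2 change of Vwf was 0.75 (standard error 0.25, adjusted p = 0.0798), and without XKA replicate 4 it passed (0.92, adjusted p = 0.0291). That of Stab2 was 0.43 (adjusted p = 0.124), with 11541 to 18113 in XKA and 8396 to 11478 in C57BL/6J livers. Cdh5 went in the other direction, with 3593 to 4027 in XKA and 4102 to 5296 in C57BL/6J livers. Its log2 change was -0.35 (adjusted p = 0.17), and without scaling it passed as lower (-0.50, adjusted p = 0.0236), where Ptprb did not pass. That of Egfl7 was 0.28 (adjusted p = 0.521), and without XKA replicate 1 it passed (0.52, adjusted p = 0.0321), as it did without both acute phase arrays (adjusted p = 0.0387). Another bright Egfl7 probe set, tested among all probe sets, passed on all arrays (0.69, adjusted p = 0.0125).

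**Figure D3:**
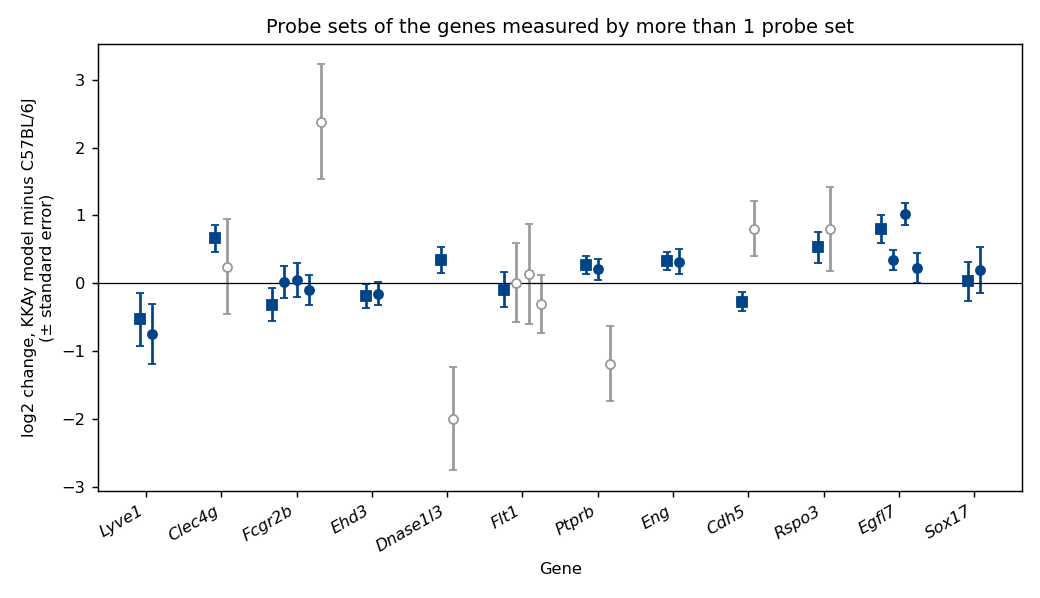
Log2 change between KKAy model and C57BL/6J livers, with standard error, of every probe set of the 12 genes measured by more than 1. Squares are the probe sets used here, circles are the others, and open grey symbols have a mean below the array median. The 4 Egfl7 probe sets run from 0.23 to 1.02, and the dim ones of Fcgr2b, Dnase1l3 and Ptprb lie far from the bright ones of the same gene.

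The 31 genes were measured by 51 probe sets, of which 11 had a mean below the array median. Fcgr2b had 4 bright probe sets with log2 changes of -0.32 to 0.05 and a dim one at 2.38, and Dnase1l3 had a bright one at 0.35 and a dim one at -2.00. For Lyve1, Ehd3 and Eng both probe sets had the same sign. For Ptprb, Cdh5, Dnase1l3 and Fcgr2b the mean over probe sets had the opposite sign from the brightest probe set in the KKAy model against C57BL/6J comparison, since it took in the dim probe set.

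Other genes of endothelium and of its signals were read from lists with the same test. Of 52 further endothelial genes, 8 rose and 0 fell in KKAy model livers. That is 15.4%, near the 12.8% of all genes, and the median log2 change was 0.192 against 0.148. With the values as deposited it was 4 higher and 1 lower. Lmo2, a transcriptional cofactor of blood and endothelium, rose by 1.32 (standard error 0.19, adjusted p = 7.19e-05 from limma) and Ephb4, the venous ephrin receptor, by 1.20 (standard error 0.19, adjusted p = 0.000291). Mmrn2, an endothelial matrix protein, rose by 0.90 (adjusted p = 0.0109). Bmp6, which also acts on hepcidin, rose by 1.53 (adjusted p = 0.0497) from signals of 157 to 1416 in the C57BL/6J group. Lmo2, Ephb4 and Mmrn2 passed in all 3 scalings and Bmp6 not in the values as deposited. No gene of this list passed between the XKA and KKAy model groups by limma, where 4 had an unadjusted p under 0.05, as had 8.58% of all genes. Against C57BL/6J, 3 genes of the list were higher in the XKA group and 1 was lower (7.69%, near the 7.37% of all genes), and these 4 passed in all 3 scalings. Ephb4 was higher by 1.11 (adjusted p = 0.000907), Nrp2, a coreceptor of VEGF ligands, by 1.08 (adjusted p = 0.00663) and Lmo2 by 0.77 (adjusted p = 0.0131). Cd300lg fell by 2.04 (adjusted p = 0.0417), from 617 to 1304 in C57BL/6J to 89 to 427 in XKA livers, near and below the array median.

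Of 8 VEGF and angiopoietin ligands 2 rose and 1 fell in the KKAy model (37.5%, against 12.8% of all genes). Vegfc, the ligand of VEGFR3, rose by 1.23 (standard error 0.19, adjusted p = 0.000235 from limma) and Angpt2, which opposes TIE2 signalling in many settings, by 0.87 (standard error 0.23, adjusted p = 0.0163). Vegfb fell by 0.85 (standard error 0.22, adjusted p = 0.0141). With the values as deposited 1 rose and 3 fell, and Angpt2 did not pass. Vegfc and Angpt2 were also higher in the XKA group than in C57BL/6J livers (0.90, adjusted p = 0.00604, and 0.76, adjusted p = 0.048), the latter again not without scaling. Of 31 genes of BMP and Wnt signalling and their targets 5 rose and 1 fell (19.4%, against 12.8% of all genes). In the values as deposited 3 rose and 4 fell, and after quantile normalization 5 rose and 6 fell. Bmp5, Cyp1a2 and Znrf3 passed as lower under both of these scalings, and Hjv and Oat after quantile normalization only. Sp5 and Nkd1, targets of Wnt signalling, rose by 1.70 (adjusted p = 0.0244) and 0.98 (adjusted p = 0.0415), and Rhbg by 0.96 (adjusted p = 0.0227). Sp5 and Nkd1 did not pass in the values as deposited, and the C57BL/6J signals of Sp5 ran from 228 to 1785. Slc1a2, a glutamate transporter of pericentral hepatocytes, fell by 1.15 (standard error 0.20, adjusted p = 0.000557). The log2 change was 0.31 for Axin2, a Wnt target, 0.07 for Glul, glutamine synthetase, and -0.42 for Hamp, hepcidin, and none of the 3 passed by limma.

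**Figure D4:**
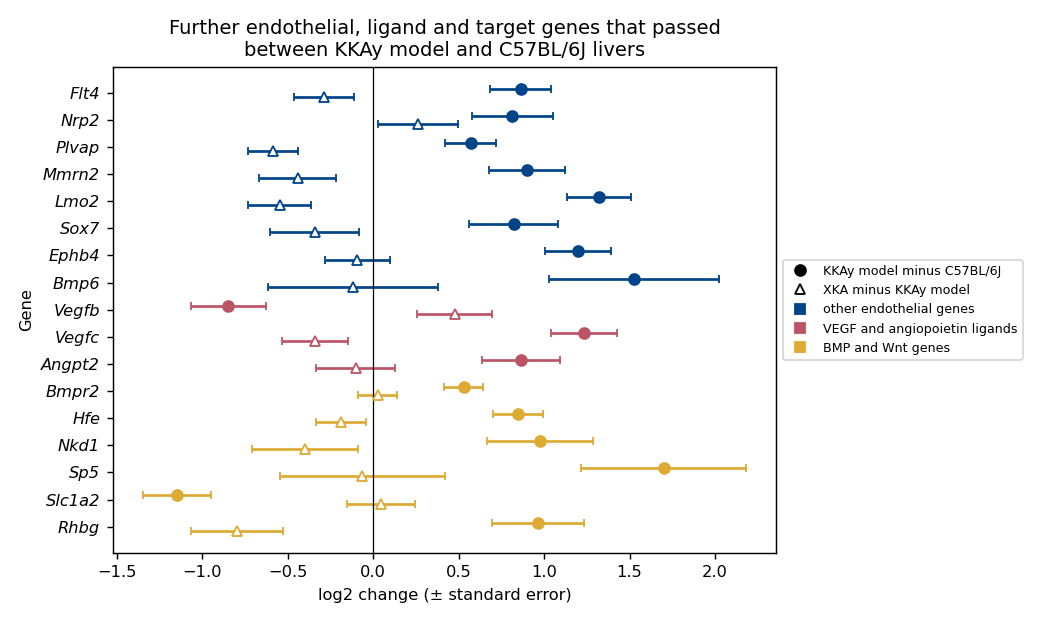
Log2 change with standard error of the 17 genes of the 3 related lists that passed between KKAy model and C57BL/6J livers (filled circles), and their values for XKA minus KKAy model (open triangles), which share the KKAy model arrays. All but Vegfb and Slc1a2 were higher in the KKAy model, and none passed between the XKA and KKAy model groups.

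Some markers of other liver cells also passed between KKAy model and C57BL/6J livers, where 12.8% of all genes passed. Of 16 Kupffer and macrophage markers 3 rose (C1qc, Lyz2 and Msr1) and Marco fell by 3.10 in the KKAy model (25%). C1qc did not pass under either other scaling. Between the XKA and KKAy model groups 0 of these 16 markers passed. Unadjusted p was under 0.05 for 8 of them, against 8.58% of all genes, and their median log2 change was -0.584. Their summed signal was 182200 to 329000 in C57BL/6J livers, 222400 to 541500 in model livers and 174700 to 309100 in XKA livers. Of 16 stellate and fibroblast markers 3 rose (18.8%: Rgs5, Acta2 and Col3a1), with sums of 199800 to 328700, 245600 to 383400 and 215400 to 364700. Col3a1 did not pass under either other scaling. Of 11 hepatocyte markers 1 rose (Apob), while Ass1 fell without scaling and Ass1 and Apoa1 fell after quantile normalization. Of 6 platelet markers, which bear on Vwf, 0 rose and Itgb3 fell. Itgb3 was at 94 to 711 in model and 532 to 1208 in C57BL/6J livers, near and below the array median. Itga2b had a lower mean in the model, at 1861 to 3608 against 3018 to 3837, with overlap. Of the 6, 4 had a positive log2 change, as had 11420 of all 18193 genes. Their median was 0.41, against 0.148 over all genes. Ppbp was at 973 to 1103 in C57BL/6J and 1288 to 2114 in model livers, without overlap (0.73, adjusted p = 0.0883), and Pf4 had a log2 change of 0.49 (adjusted p = 0.128). Ppbp passed between XKA and C57BL/6J livers (0.90, adjusted p = 0.0489), though not without scaling. The sums of this list were 10910 to 13590, 12320 to 17950 and 11230 to 17420. Of 3 red cell markers Alas2 rose by 1.88, with sums of 7770 to 16430, 25440 to 42210 and 22830 to 31990, and of 5 neutrophil markers S100a8 rose by 2.16, with sums of 5703 to 8779, 11250 to 29240 and 5987 to 23530. The model and C57BL/6J sums of both lists did not overlap, and Alas2 and S100a8 passed in all 3 scalings. The red cell sums were mostly Alas2, so they repeat its change. In model livers S100a8 was 6757 to 19811 of the neutrophil sums, so these largely repeat its change too. All 5 neutrophil markers had a positive log2 change, and only S100a8 passed. Of the 3 red cell markers 2 had a positive log2 change, and Slc4a1 was lower. Its signal was 1317 to 3779 in C57BL/6J and 761 to 2643 in model livers. Of the 5 cholangiocyte, 11 lymphocyte and 4 adipocyte markers none passed by limma. Of these lists 0, 1 and 0 had an unadjusted p under 0.05, against 4569 of all 18193 genes. The summed signal of the 31 endothelial genes was 148800 to 204000, 190200 to 228500 and 154600 to 252900, and the groups overlapped. The part of these cells in the endothelial values was not tested.

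Single arrays moved the whole set. In XKA replicate 1, 28 of the 31 genes lay below the mean of their group, with a median log2 deviation of -0.36, and the 52 further endothelial genes stood at -0.29. In XKA replicate 3 the median deviation was 0.24. The other 13 arrays lay from -0.22 to 0.18. In XKA replicate 1 the Kupffer markers were at -0.36, the stellate markers at -0.27 and the hepatocyte markers at -0.02. The cholangiocyte, lymphocyte, red cell, neutrophil, adipocyte and platelet markers were at 0.42, 0.32, 0.25, 0.20, 0.19 and 0.11 there.

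**Figure D5:**
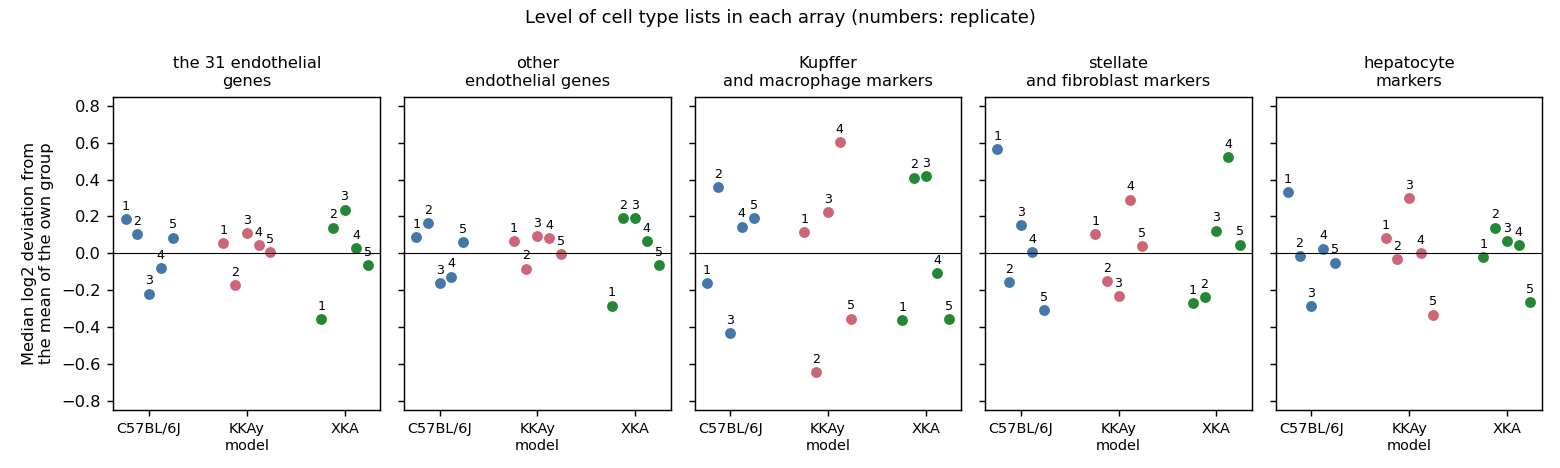
Median log2 deviation of 5 gene lists from the mean of the own group, in each of the 15 arrays (numbers are replicates). XKA replicate 1 has the lowest value in both endothelial lists, -0.36 and -0.29.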

How the data were processed

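Liver RNA of 15 mice was hybridised to Affymetrix whole genome arrays, and the authors deposited 1 intensity per probe set and array on a linear scale. The sources used here do not give how the authors summarised probes. The methods name median scaling to 1000 in ArrayTrack, and since the deposited intensities had other medians each array was scaled to 1000 and taken to log2. Precision is limited by the 5 arrays per group, and no label says more of the replicates than that each is 1 mouse.

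Of 45101 probe sets 34958 had 1 gene symbol, 932 had several and 9211 were unnamed. Probe sets for array controls were dropped. Symbols were updated through Entrez identifiers for 34741. Each gene stood for its probe set with the highest mean log2 signal. Groups were compared with limma 3.58.1 in R 4.3.3 (with the package data.table, version 1.17.8), with an intensity trend, all 15 arrays in 1 fit, two-sided, and Benjamini-Hochberg adjustment over 18193 genes at 0.05. Dunnett comparisons used mvtnorm 1.3.3. The fit was tested on simulated data. Figures were drawn with Python 3.11.15, pandas 2.3.3 and matplotlib 3.10.9.

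All 31 genes are named, and of every other list up to 4 genes per comparison, those with the largest change past the threshold, could be. Axin2, Glul, Hamp, Bmp5, Cyp1a2, Znrf3, Hjv, Oat and Saa3 were chosen after their values were seen. So were Ppbp, Pf4, Itga2b, Hba-a1, Slc4a1, Ass1, Apoa1 and the genes of the related lists that are only drawn. The members and lists were chosen with earlier results of these data known. Alternatives covered scaling, probe sets, dim genes, the test, array weights, the replicate block and the removal of each array, and 2 were added after seeing the data (both acute phase arrays left out, and centring on the 31 genes). With every probe set as its own row, the probe set with the lowest p in each comparison stood for its gene. Removing an array of the group outside a comparison keeps its log2 change and alters only its standard error and p.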

Additional observations from a re-analysis of the deposited data

Results flagged for a closer look

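In 7 of 93 sets of 5 arrays (31 genes in 3 groups) 1 array stood apart from the other 4 by Dixon's ratio of gap to range on the log2 signal, where chance gives about 1 in 20. Fcgr2b was 9902 in KKAy model replicate 4, against 16604 to 19416 in the other model arrays. Mrc1 was 10434 in KKAy model replicate 2, against 14516 to 16418, and Ehd3 was 10284 in KKAy model replicate 1, against 7799 to 8354. In C57BL/6J replicate 4 both dim genes were low, with Tie1 at 148 against 492 to 734 and Pecam1 at 243 against 787 to 1157. Wnt2 was 2457 in XKA replicate 2, against 1549 to 1719, and Egfl7 was 3166 in XKA replicate 1, against 6661 to 9019. None of these was followed further.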

How the results depend on the processing

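Between KKAy model and C57BL/6J livers the number of the 31 genes that passed was 4, from 3 to 4 when 1 array was left out (without KKAy model replicate 5 Eng was among the 4 in place of Clec4g), 3 without both acute phase arrays, and 2 by Dunnett comparisons (Stab2 and Vwf). The split of higher against lower depended on scaling: over all genes it was 1906 and 430 after median scaling, 1118 and 1017 without scaling and 1587 and 1092 after quantile normalization, and among the 31 genes 4 and 0, 2 and 3, and 3 and 2. Between the XKA and KKAy model groups the number was 0 under every alternative run. Between the XKA and C57BL/6J groups it was 1 (Ptprb), and 0 to 2 when 1 array was left out. Without scaling it was 1 as well, but this was Cdh5, as lower, and Ptprb did not pass. For these groups it was 2 with genes above the array median, with array weights and without both acute phase arrays, and 0 after quantile normalization, with the mean of probe sets, without the trend, with only the 2 groups and with the replicate block.

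With the replicate number as a block the counts were 4, 0 and 0. The numbers did not pair the arrays: correlations of same-numbered arrays ran from -0.041 to 0.095, and in 1 of 15 same-numbered pairs was the best match the one with the same number.

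The sign of a log2 change turned in genes that had not passed, and no turned value passed. In the KKAy model against C57BL/6J comparison this held in the values as deposited for Bmp2 (-0.060), Kdr (-0.0086), Mrc1 (-0.059), Oit3 (-0.11), Sox17 (-0.17), Stab1 (-0.15) and Tek (-0.0080), and after quantile normalization for Bmp2 (-0.025), Mrc1 (-0.049), Oit3 (-0.041) and Stab1 (-0.085). With the mean of probe sets Cdh5 was 0.27, Dnase1l3 -0.82, Fcgr2b 0.41 and Ptprb -0.24, and with every probe set as its own row 0.81, -2.00, 2.38 and -1.19. With array weights Flt1 was 0.012, and without both acute phase arrays Stab1 was -0.027 and Tie1 0.31. Leaving out 1 array gave -0.046 to 0.18 for Stab1, -0.31 to 0.060 for Flt1, -0.81 to 0.31 for Tie1, -0.52 to 0.21 for Pecam1, -0.16 to 0.015 for Robo4 and -0.16 to 0.18 for Sox17. In the XKA against KKAy model comparison Bmp2 was 0.022 without scaling and 0.018 after quantile normalization, and Fcgr2b was -0.14 with the mean of probe sets and -0.89 with every probe set as its own row. Array weights gave 0.041 for Bmp2, 0.060 for Mrc1 and 0.0099 for Nos3, and leaving out both acute phase arrays gave 0.073 for Bmp2, 0.082 for Emcn, 0.010 for Esam and 0.092 for Mrc1. Leaving out 1 array gave -0.32 to 0.36 for Lyve1, -0.12 to 0.23 for Fcgr2b, -0.15 to 0.064 for Mrc1, -0.016 to 0.16 for Oit3, -0.12 to 0.31 for Kdr, -0.027 to 0.18 for Flt1, -0.23 to 0.018 for Esam, -0.034 to 0.20 for Cldn5, -0.40 to 0.034 for Icam2, -0.097 to 0.12 for Bmp2 and -0.30 to 0.25 for Nos3. Against C57BL/6J, Cdh5 in the XKA group was 0.090 with the mean of probe sets. The causes were not tested.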
